A study of Homo sapiens with 13 samples.

Results

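The genes that encode histone lysine methyltransferases and demethylases were examined for PTBP1 and RUNX1 peaks in MOLM-13 cells. The genes were picked by a rule on their symbols, from the KDM, KMT2 to KMT5, SETD, SETDB, EZH, NSD, EHMT and SUV39H families of the GENCODE annotation of hg38. The rule itself used no peaks, but the family was chosen with earlier results of these data known. KMT2A was left out by that rule. The choice gave 46 of 19970 protein-coding genes on chromosomes 1 to 22 and X, of which 27 belong to methyltransferase families and 19 to demethylase families.

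MOLM-13 cells, a human line established from acute myeloid leukemia, were used in every group, and the labels name no treatment or genetic change. PTBP1 and RUNX1 were each profiled by CUT&Tag in 2 libraries with 1 IgG control, and PTBP1, RUNX1, H3K27me3 and IgG were profiled by CUT&RUN in 2 libraries each, 13 libraries in all. In both methods an antibody brings an enzyme to a protein on chromatin, and the enzyme releases the DNA nearby for sequencing. The values below come from 1 PTBP1 peak list of 9370 peaks and 1 RUNX1 list of 7688 peaks, without replicates, so no interval given covers variation between libraries. Intervals of fragments cover counting error only. Those of shares and medians treat the genes as independent draws, although the genes are a fixed list.

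PTBP1 is best known as an RNA-binding protein that regulates splicing, and RUNX1 is a transcription factor of blood development that recognises a short DNA motif. Histone lysine methyltransferases add methyl groups to lysines of histones H3 and H4, and demethylases remove them. Methylation of H3K4 marks active promoters and enhancers, that of H3K36 marks transcribed genes, and that of H3K9, H3K27 and H4K20 is linked to repression and compact chromatin. Several of these enzymes are recurrently mutated or drug targets in leukemia, among them EZH2, SETD2, KDM6A and KDM1A. The transcription start site (TSS) was the 5-prime end of the annotated gene, and a peak was counted at the TSS when any of its bases lay within 1000 bases of it. Fold enrichment is the number of fragments stacked at the peak summit over the background, with 1 added to each, and the background was usually 0.72 fragments for PTBP1 and 0.33 for RUNX1. Values of the lists are therefore not on the same scale, so the percentile of a peak within its own list is given beside its fold enrichment where lists are set side by side. Equal fold enrichment in the lists does not mean equal strength.

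PTBP1 and RUNX1 peaks were more frequent at these start sites than at those of all protein-coding genes. A PTBP1 peak was found at the TSS of 27 of the 46 genes, or 58.7% (95% Wilson interval 44.3 to 71.7), where 26.4% of all protein-coding genes had one. A RUNX1 peak was found at 29, or 63.0% (48.6 to 75.5), against 21.4% of all genes. Both peaks were found at 24, or 52.2% (38.1 to 65.9), against 17.4% of all genes. Of the other genes, 3 had a PTBP1 peak alone (6.52%, with 9.07% over all genes), 5 had a RUNX1 peak alone (10.9%, with 3.99% over all genes), and 14 had neither. The 3 shares with a PTBP1 peak, a RUNX1 peak and both were above those of all genes by more than their intervals, whereas the shares with a single peak had intervals that included the shares of all genes for PTBP1 (2.24 to 17.5) but not for RUNX1 (4.73 to 23.0).

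**Figure D1:**
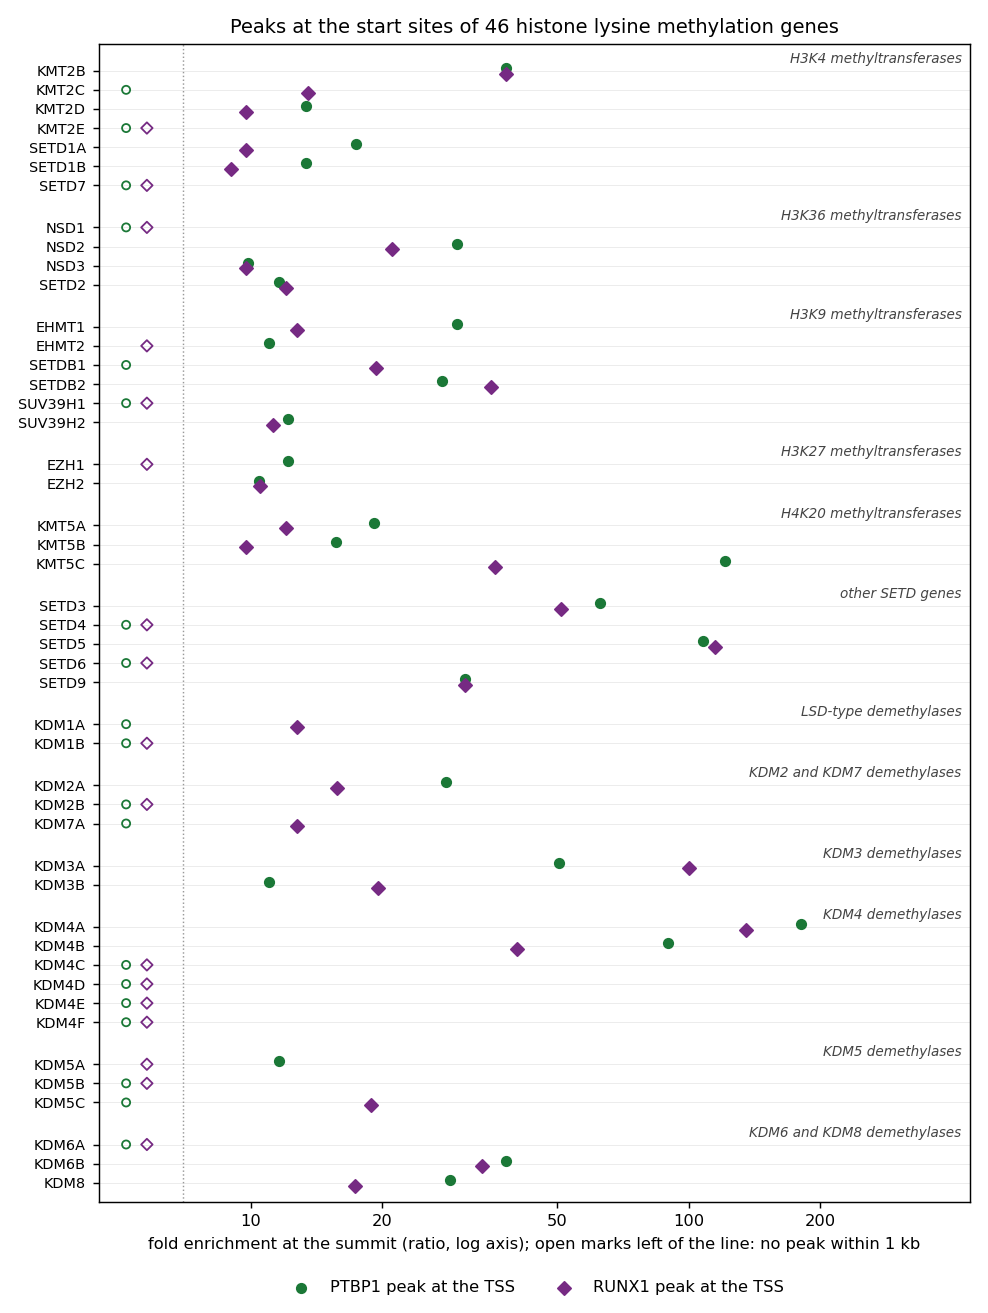
Fold enrichment at the summit of the strongest peak within 1 kb of the TSS (horizontal log axis) for each of the 46 genes, grouped by the lysine they methylate or by demethylase family, with the remaining SETD genes apart, and with circles for PTBP1 and diamonds for RUNX1. Open marks left of the dotted line stand for no peak in that list, and the filled marks run from 9.88 to 180.2 for PTBP1 and from 9.02 to 135.3 for RUNX1.

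Start sites rich in CpG dinucleotides were common among these genes. A window of 500 bases either side of the TSS was called CpG-rich when its GC content was at least 50% and its observed to expected CpG ratio at least 0.6. This held for 35 of the 46 genes (76.1%) and for 58.1% of all protein-coding genes. Within CpG-rich start sites, 25 of 35 genes (71.4%) had a PTBP1 peak, against 39.1% of all such genes. A RUNX1 peak was found at 27 of the 35 (77.1%), against 31.8%, and both peaks at 22, against 26.2%. Each share was above that of all genes of the same class. Of the 11 remaining genes, 2 had a PTBP1 peak and 2 a RUNX1 peak. Of all 19970 protein-coding genes, 11611 had a CpG-rich start site, and of the rest 739 had a PTBP1 peak and 568 a RUNX1 peak.

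The genes with both peaks were compared in the position of the summits. All 24 pairs of peaks overlapped, as did 3454 of the 3469 pairs over all protein-coding genes with both (99.6%). The summits lay a median of 108 bases apart (quartiles 46.75 and 173.75, range 0 to 532), and the 95% interval of that median, 59.0 to 172 bases from order statistics, included the 79.0 bases of all genes with both. The summits coincided to the base at KMT5C, SETD5 and KDM8, and they were farthest apart at KDM3B. Of the genes with a PTBP1 peak, 24 of 27 (88.9%, 71.9 to 96.1) also had a RUNX1 peak, against 65.7% of all genes with a PTBP1 peak. In the other direction the share was 24 of 29 (82.8%, 65.5 to 92.4), against 81.3%. The first share exceeded that of all genes by more than its interval, and the second had an interval that included it.

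**Figure D2:**
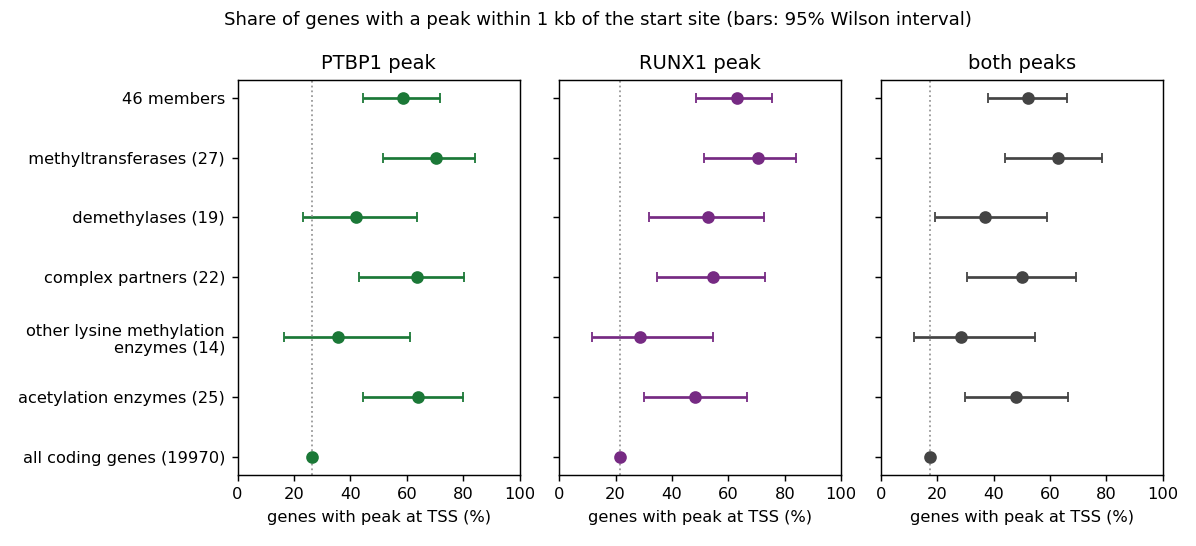
Percent of genes with a PTBP1 peak, a RUNX1 peak or both within 1 kb of the TSS, for the 46 genes, their methyltransferase and demethylase groups, and lists of related genes. Bars are 95% Wilson intervals and the dotted line is the share over all 19970 protein-coding genes, which lies below every interval of the 46 genes.

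The strongest peaks were at KDM4A, KMT5C, SETD5, KDM4B and SETD3 in the PTBP1 list, and at KDM4A, SETD5, KDM3A, SETD3 and KDM4B in the RUNX1 list. The sequence at 3 of these summits is given because the PTBP1 and RUNX1 summits lay on the same base or within 5 bases of each other there. Each run is read 5′ to 3′ on the gene's strand in hg38 and was shortened where needed so that it holds no annotated untranslated exon. Capitals mark a GC box, GGGCGG or its reverse complement.

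KDM4A, chr1:43650072-43650148, plus strand: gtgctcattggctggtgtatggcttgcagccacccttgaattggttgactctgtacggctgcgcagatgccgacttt

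KMT5C, chr19:55339475-55339575, plus strand: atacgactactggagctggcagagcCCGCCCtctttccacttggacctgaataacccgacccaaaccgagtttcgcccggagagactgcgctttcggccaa

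SETD5, chr3:9396935-9397035, plus strand: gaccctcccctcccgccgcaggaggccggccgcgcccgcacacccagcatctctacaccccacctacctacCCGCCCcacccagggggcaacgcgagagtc

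KDM4A encodes a demethylase of H3K9 and H3K36, and its start site had the highest fold enrichment of the family in both lists. The PTBP1 peak, chr1:43649308-43651672, had a fold enrichment of 180.2 from 309 fragments (exact Poisson 95% interval 276 to 345) and lay at percentile 99.9 of its list. The RUNX1 peak, chr1:43649494-43650722, had 135.3 from 179 fragments (154 to 207), at percentile 99.7. Both summits lay just upstream of the TSS, at −27 and −22 bases, and the stretch printed above holds neither a GC box nor a RUNX match. A coding gene of the same strand without a symbol also starts within 1 kb.

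KMT5C, a methyltransferase of H4K20, had a PTBP1 peak at chr19:55338727-55340239 with a fold enrichment of 120.9 from 207 fragments (180 to 237). Its RUNX1 peak, chr19:55339238-55339897, had 36.1 from 47 fragments (34.5 to 62.5). This gene stood higher in the PTBP1 list (percentile 99.5) than in the RUNX1 list (percentile 89.2). SETD5, a SET-domain protein in which loss-of-function variants cause intellectual disability, had a PTBP1 peak at chr3:9396223-9397770 with a fold enrichment of 108.1 from 185 fragments (159 to 214). Its RUNX1 peak, chr3:9396238-9397984, had 115.0 from 152 fragments (129 to 178), and the peaks were at percentiles 99.3 and 99.4 of the lists. Both summits were at −630 bases, where the noncoding gene THUMPD3-AS1 also starts within 1 kb. SETD3, which methylates a histidine of actin, had 62.8 from 107 fragments (87.7 to 129) for PTBP1 at chr14:99480059-99481716. For RUNX1 it had 51.1 from 67 fragments (51.9 to 85.1) at chr14:99480126-99481813, and these peaks were at percentiles 97.5 and 94.9 of the lists. The cyclin gene CCNK starts within 1 kb on the opposite strand, and the SETD3 and CCNK start sites cannot be told apart at this spacing.

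KDM4B, the paralog of KDM4A, had a PTBP1 peak at chr19:4968087-4969741 with a fold enrichment of 89.5 from 153 fragments (130 to 179). Its RUNX1 peak at chr19:4968202-4969202 had 40.6 from 53 fragments (39.7 to 69.3), and the percentiles were 98.9 and 91.5. KDM3A, an H3K9 demethylase, ranked higher in the RUNX1 list, with a fold enrichment of 100 from 132 fragments (110 to 157) at chr2:86440712-86441689. Its PTBP1 peak, chr2:86440727-86441338, had 50.6 from 86 fragments (68.8 to 106), at percentile 96.1 of its list, while the RUNX1 peak was at percentile 99.1.

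**Figure D3:**
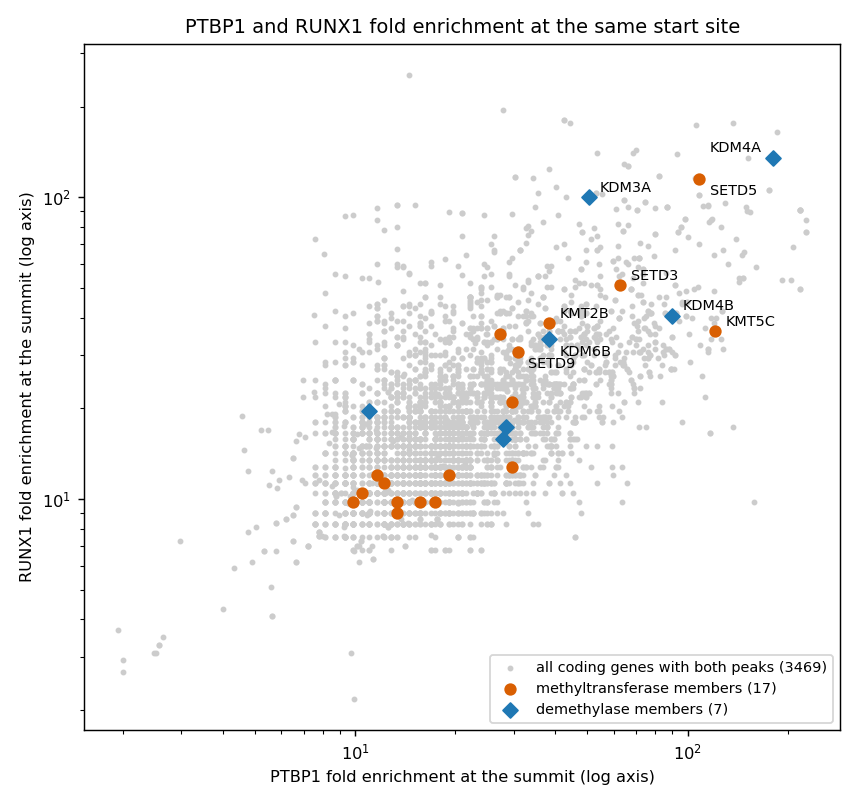
PTBP1 against RUNX1 fold enrichment at the TSS (both log axes), with 1 grey point for each of the 3469 protein-coding genes with both peaks, circles for the 17 methyltransferase genes and diamonds for the 7 demethylase genes. The 24 genes rise together from EZH2 and NSD3 at the lower left to SETD5 and KDM4A at the upper right, and genes above 30 in the PTBP1 list are named.

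Over the 24 genes with both peaks, the ranks of fold enrichment went together, with a Spearman correlation of 0.852 (Pearson 0.869 on the log2 scale). Over the 3469 genes with both peaks the Spearman correlation was 0.559. These are descriptions across genes that share the 2 lists, and genes are not independent replicates. The median fold enrichment was 27.3 over the 27 PTBP1 peaks at these start sites (23.3 without KDM4A), and 15.7 over all protein-coding genes with such a peak, a ratio of 1.74 with a 95% interval of 0.778 to 2.44 from order statistics. For RUNX1 the medians were 17.3 over the 29 genes (16.5 without KDM4A) and 15.8 over all, a ratio of 1.1 (0.762 to 2.14). Both intervals include equal medians, so a difference in fold enrichment from other genes was not shown for either list. Of the PTBP1 peaks, 15 of 27 lay above the upper quartile of the list and 8 in its top 10%. Of the RUNX1 peaks, 10 of 29 lay above the upper quartile and 6 in the top 10%. These cuts are those of the whole lists, whose median fold enrichment was 12.2 for PTBP1 and 15.0 for RUNX1. The shares of all start-site peaks above the cuts were not counted, so these counts do not show stronger peaks than at other genes.

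Among the H3K4 methyltransferases, KMT2B, SETD1A, SETD1B and KMT2D had both peaks, KMT2C had a RUNX1 peak alone, and KMT2E and SETD7 had none at the TSS. Other than KMT2E and SETD7, these enzymes work in COMPASS complexes. KMT2B, which methylates H3K4 at CpG-rich promoters, stood apart with a fold enrichment of 38.4 for PTBP1 (65 fragments) and 38.3 for RUNX1 (50 fragments), at percentiles 93.3 and 90.5. SETD1A, SETD1B and KMT2D had PTBP1 values of 13.4 to 17.4 (percentiles 57.3 to 72.5) and RUNX1 values of 9.02 to 9.77 (percentiles 12.6 to 18.1), the latter from 11 or 12 fragments and so among the weakest RUNX1 peaks of the family. KMT2C, which with KMT2D acts mainly at enhancers, had a RUNX1 peak of 13.5 from 17 fragments (9.90 to 27.2) at chr7:152436265-152436643, which lay directly downstream of the TSS.

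Of the H3K36 methyltransferases, SETD2 (the main enzyme of H3K36 trimethylation), NSD2 and NSD3 had both peaks and NSD1 had neither at its TSS. NSD2 was the strongest, with 29.6 for PTBP1 from 50 fragments and 21.1 for RUNX1 from 27 fragments, at percentiles 89.2 and 70.9. Its summits lay upstream of the TSS, at −613 and −722 bases. SETD2 had 11.6 and 12.03 (percentiles 46.5 and 35.1). NSD3 had 9.88 and 9.77 (percentiles 30.8 and 18.1), the former being the lowest PTBP1 value among the 27 genes.

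The H3K9 methyltransferases were mixed. EHMT1, SETDB2 and SUV39H2 had both peaks, EHMT2 had PTBP1 alone, SETDB1 had RUNX1 alone and SUV39H1 had neither. EHMT1 and EHMT2 (GLP and G9a) form a heteromer that dimethylates H3K9. EHMT1 had 29.6 for PTBP1 and 12.8 for RUNX1 (percentiles 89.2 and 39.7), with summits 3 bases apart. EHMT2 had a PTBP1 peak of 11.05 from 18 fragments (10.7 to 28.4) at chr6:31897298-31898190, where the complement gene C2 also starts within 1 kb. SETDB1, which trimethylates H3K9 at retroelements, had a RUNX1 peak of 19.4 from 71 fragments (55.5 to 89.6) at chr1:150926172-150926687. That peak was the only one at these start sites on a raised background, 2.72 fragments, where raised means over 1.5 times the usual level of the list. SETDB2 had 46 fragments at each summit, which gave 27.3 for PTBP1 and 35.3 over the lower background of RUNX1, at percentiles 87.4 and 88.7. SETDB2 shares its start region with CAB39L.

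The catalytic subunits of PRC2, the complex that methylates H3K27, had low values. EZH2 had 10.5 from 17 fragments for PTBP1 and 10.5 from 13 fragments for RUNX1, at percentiles 36.7 and 23.9. EZH1 had a PTBP1 peak of 12.2 from 20 fragments (12.2 to 30.9) at chr17:42744596-42745122 and no RUNX1 peak. The H4K20 methyltransferases all had both peaks. Beside KMT5C, KMT5A (which monomethylates H4K20) had 19.2 for PTBP1 and 12.03 for RUNX1 (percentiles 76.7 and 35.1), and KMT5B had 15.7 and 9.77 (percentiles 67.3 and 18.1). Among the remaining SETD genes, SETD9 had 30.8 for both proteins, at percentiles 90.0 and 85.1, and SETD4 and SETD6 had no peak at the TSS.

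The demethylases had fewer peaks at start sites than the methyltransferases. PTBP1 peaks were found at 8 of 19 (42.1%, 23.1 to 63.7) against 19 of 27 (70.4%, 51.5 to 84.1), RUNX1 peaks at 10 of 19 (52.6%, 31.7 to 72.7) against 19 of 27 (70.4%, 51.5 to 84.1), and both at 7 of 19 (36.8%, 19.1 to 59.0) against 17 of 27 (63.0%, 44.2 to 78.5). These intervals overlap, and the difference between the families was not tested. The demethylase interval for PTBP1 included the 26.4% of all genes, so an excess of PTBP1 peaks at the annotated 5-prime end was not shown for the demethylases alone. This depended on the start used. With the start of any protein-coding transcript, 10 of 19 demethylases (52.6%, 31.7 to 72.7) had a PTBP1 peak, against 29.5% of all genes. At the annotated 5-prime end, the demethylase intervals for RUNX1 and for both peaks lay above the 21.4% and 17.4% of all genes. The methyltransferase intervals all lay above the shares of all genes. Where a peak was present, the median PTBP1 fold enrichment was 33.4 in the demethylases and 17.4 in the methyltransferases, and the RUNX1 medians were 19.2 and 12.8.

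KDM1A (LSD1), which removes methyl groups from H3K4 and is a drug target in acute myeloid leukemia, had a RUNX1 peak of 12.8 from 16 fragments (9.15 to 26.0) at chr1:23019285-23019622 and no PTBP1 peak. KDM1B had neither. KDM2A, an H3K36 demethylase that binds unmethylated CpG through its CXXC domain, had 27.9 for PTBP1 and 15.8 for RUNX1 (percentiles 87.8 and 54.4), with summits 10 bases apart. KDM7A had a RUNX1 peak alone, 12.8 from 16 fragments (9.15 to 26.0) at chr7:140177083-140177405. Both KDM3 genes had both peaks, and KDM3B had 11.05 for PTBP1 and 19.5 for RUNX1 (percentiles 41.9 and 67.5). The KDM5 genes, whose products remove H3K4 trimethylation, had no start site with both peaks. KDM5A had a PTBP1 peak of 11.6 from 19 fragments (11.4 to 29.7) at chr12:389299-389624, on a start region shared with CCDC77. KDM5C had a RUNX1 peak of 18.8 from 24 fragments (15.4 to 35.7) at chrX:53225139-53225601, and KDM5B had neither.

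The H3K27 demethylases KDM6A and KDM6B differed. KDM6A, a tumor suppressor in blood cancers, had no peak of either list within 1 kb of its TSS or in its 239.6 kb of gene. The region around it was also empty, with 0 PTBP1 and 0 RUNX1 summits within 500 kb of its TSS. Around KDM6B there were 41 and 25, and the medians over all genes were 3 and 4. The part of this local density in the difference was not tested. KDM6B had peaks of 38.4 from 65 fragments for PTBP1 and 33.8 from 44 fragments for RUNX1 (percentiles 93.3 and 87.6), each over 3 kb wide, with summits in intron 1 at 1292 and 1399 bases downstream of the TSS. KDM8 had 28.5 and 17.3 for PTBP1 and RUNX1 (percentiles 88.3 and 60.2), on the same base. The 8 genes with a peak of a single list at the TSS had fold enrichment between 11.05 and 19.4. The PTBP1 values lay below the family's median of 27.3, and of the RUNX1 values those of SETDB1 and KDM5C lay above the median of 17.3.

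Summits lay more often upstream of the TSS than downstream. This held for 18 of 27 PTBP1 peaks and 19 of 29 RUNX1 peaks, and the medians were −134 and −40 bases. Within 300 bases of the TSS lay 17 and 18 summits. Summit positions were not computed for the TSS peaks of all genes, so these are not shown to be particular to this family. A protein-coding gene on the opposite strand started within 1 kb at 8 of the 46 genes, with TEX46, TPMT, C2, CWC15, CCDC77, RHOF, CAB39L and CCNK as the partners, and a peak there cannot be assigned to either gene. How many of all protein-coding genes have such a neighbour was not counted.

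**Figure D4:**
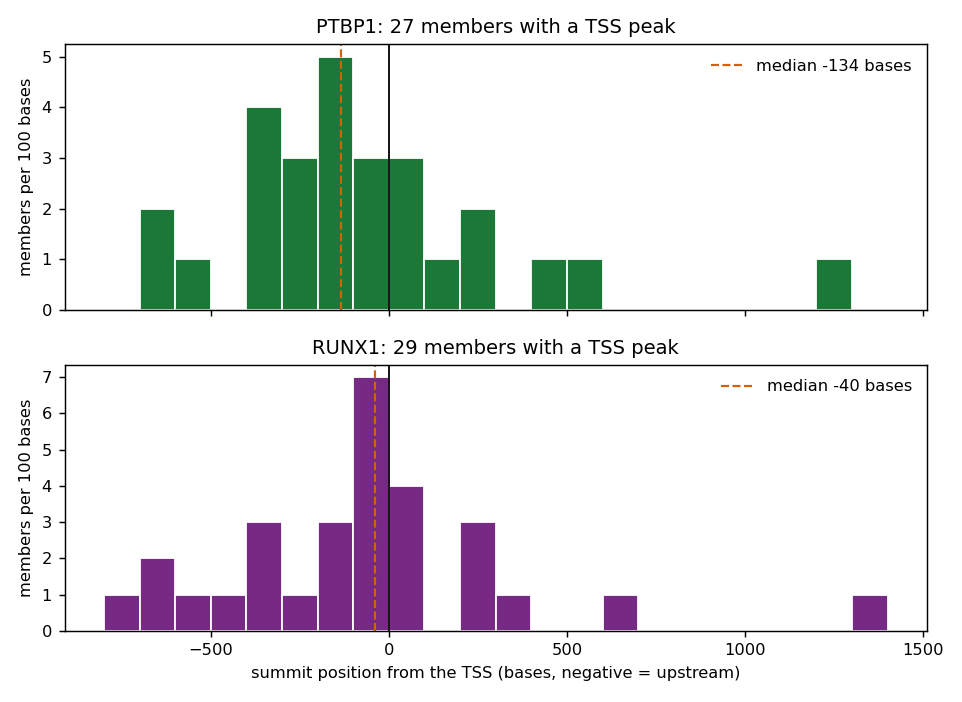
Position of the strongest summit from the TSS in bases (horizontal axis, negative values upstream) against the number of genes per 100 bases, for the 27 PTBP1 and the 29 RUNX1 peaks at these start sites. The dashed lines are the medians, −134 for PTBP1 and −40 for RUNX1, and the summits at 1292 and 1399 bases are those of KDM6B.

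The DNA motif that RUNX1 recognises was sought as TGTGGT or TGCGGT on either strand within 50 bases of each summit. It was present at 3 of 29 RUNX1 summits at these start sites (10.3%, 95% Wilson interval 3.58 to 26.4), those of KDM1A, SETDB2 and KMT2B, against 13.0% of RUNX1 peaks at the TSS of any gene and 24.2% of the whole list. It was present at 3 of 27 PTBP1 summits (11.1%, 3.85 to 28.1), those of KDM3A, KDM4B and KMT2B, against 6.94% of PTBP1 peaks at any TSS and 8.79% of the list. The GC box was present at 12 PTBP1 summits (44.4%) and 13 RUNX1 summits (44.8%), against 42.6% and 44.8% of peaks at any TSS. A match is a run of letters in the window and no match says nothing of the protein. The start-site sequences with a RUNX match that hold no untranslated exon are given below, read on the gene's strand, with RUNX matches and GC boxes in capitals.

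KDM1A, RUNX1 summit, chr1:23019322-23019422, plus strand: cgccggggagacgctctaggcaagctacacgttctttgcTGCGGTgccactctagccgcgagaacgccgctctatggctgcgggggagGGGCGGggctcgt

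KDM4B, PTBP1 summit, chr19:4968719-4968819, plus strand: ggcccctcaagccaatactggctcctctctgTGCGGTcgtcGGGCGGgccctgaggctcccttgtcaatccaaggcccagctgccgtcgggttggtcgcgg

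KMT2B, PTBP1 summit, chr19:35717585-35717685, plus strand: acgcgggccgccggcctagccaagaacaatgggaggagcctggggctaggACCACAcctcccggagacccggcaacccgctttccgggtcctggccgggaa

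KMT2B, RUNX1 summit, chr19:35717757-35717857, plus strand: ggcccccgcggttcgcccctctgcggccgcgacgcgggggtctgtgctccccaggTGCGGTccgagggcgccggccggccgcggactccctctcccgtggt

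At KMT2B the summits were 172 bases apart and each had a different match, ACCACA (the reverse complement of TGTGGT) under the PTBP1 summit and TGCGGT under the RUNX1 summit. At KDM4B the match lay under the PTBP1 summit, and the RUNX1 summit 72 bases away had none within 50 bases. That match lay just beyond this window and inside the RUNX1 peak, so it does not set the proteins apart. With 100 bases either side of the summit, the share with a match was 17.2% for RUNX1 and 11.1% for PTBP1.

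Peaks inside the genes, away from the TSS window, were counted as gene-body peaks. PTBP1 had 25 of them in 13 genes (28.3%, 17.3 to 42.5), against 12.4% of all protein-coding genes. RUNX1 had 15 in 8 genes (17.4%, 9.09 to 30.7), against 11.5%, which lies within its interval. These genes are long, with a median of 57.2 kb against 27.5 kb over all genes. Per megabase of gene, PTBP1 had 6.27 peaks, or 4.32 without KDM4A, against 3.14 over all genes, and RUNX1 had 3.76 against 2.26. Of the 25 PTBP1 peaks, 12 lay within 1 kb of another annotated start of the same gene, as did 6 of the 15 RUNX1 peaks. Without such peaks 6 genes had a PTBP1 peak (7.32% over all genes) and 6 a RUNX1 peak (7.59% over all genes).

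**Figure D5:**
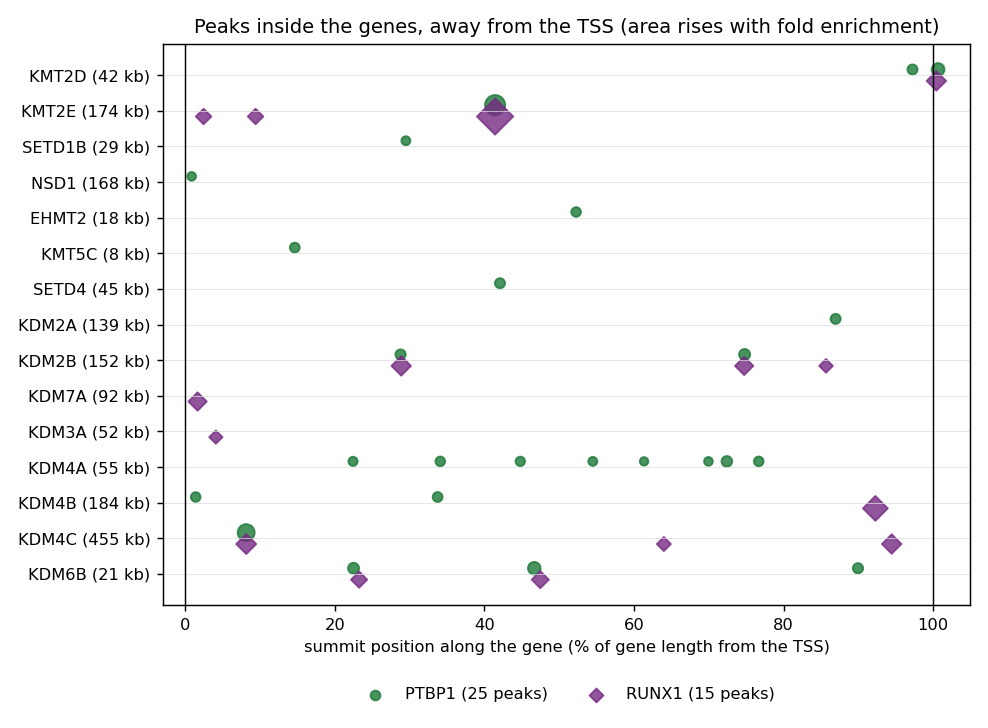
Summits of the 25 PTBP1 and 15 RUNX1 gene-body peaks along each gene, in percent of its length from the TSS, with circles for PTBP1 and diamonds for RUNX1 and the area of a mark rising with fold enrichment. KDM4A holds 8 PTBP1 marks and no RUNX1 mark, and the largest marks are those of KMT2E.

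KDM4A alone had 8 PTBP1 gene-body peaks and no RUNX1 peak outside its start site. All 8 had summits in introns, from intron 4 to intron 16, and fold enrichment between 7.56 and 13.4. The gene lies in a stretch dense in PTBP1 peaks, with 69 PTBP1 and 12 RUNX1 summits within 500 kb of its TSS, where the median over the 46 genes was 7 for PTBP1 and that over all genes was 3. EHMT1 and EHMT2 also had 69 PTBP1 summits within 500 kb, with 16 and 23 RUNX1 summits. The part of this local density in the peaks of these genes was not tested.

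The strongest gene-body peaks of both lists lay at KMT2E, a member of the KMT2 group without clear methyltransferase activity. The PTBP1 peak, chr7:105012577-105014254, had a fold enrichment of 54.1 from 92 fragments (74.2 to 113), and the RUNX1 peak, chr7:105012230-105014358, had 89.5 from 118 fragments (97.7 to 141), at percentiles 96.6 and 98.7. The summits were 1 base apart, at −1156 and −1155 bases from the start of the canonical KMT2E transcript, and the 5-prime end of the annotated gene lies much farther upstream. The starts of LINC01004 and KMT2E-AS1 lie within 1 kb of these peaks. KDM4C was alike in this, with a PTBP1 peak of 37.8 from 64 fragments (49.3 to 81.7) at chr9:6757099-6758507 and a RUNX1 peak of 25.6 from 33 fragments (22.7 to 46.3) at chr9:6757234-6759023 (percentiles 93.0 and 79.4). Their summits lay at −131 and −102 bases from the canonical start, 36979 and 37008 bases inside the annotated gene.

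In all, 5 of the 14 genes without a peak at the annotated 5-prime end had one that came within 1 kb of another annotated start of the gene. Besides KDM4C, these were KMT2E, NSD1, KDM2B and SETD4. NSD1 had a PTBP1 peak of 8.14 with its summit at −525 bases from the canonical start, and SETD4 one of 11.6 with its summit 9 bases after it. KDM2B, an H3K36 demethylase that recruits a variant PRC1 complex to CpG islands, had peaks of both lists in intron 6 beside an internal start, 12.2 for PTBP1 and 24.1 for RUNX1 (percentiles 50.5 and 77.0). With the start of any protein-coding transcript in place of the gene's end, 32 of the 46 genes (69.6%) had a PTBP1 peak and 32 a RUNX1 peak, against 29.5% and 24.3% of all genes.

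The other leading gene-body peaks were as follows. For RUNX1, KDM4B had a peak of 40.6 from 53 fragments (39.7 to 69.3) at chr19:5138703-5140237 in intron 18, with no PTBP1 peak over it. KMT2D had a RUNX1 peak of 24.1 from 31 fragments (21.1 to 44.0) at chr12:49017977-49020128 over the 3-prime end of the gene, and a PTBP1 peak of 20.3 from 34 fragments (23.5 to 47.5) at chr12:49018257-49019085 overlapped it (percentiles 77.0 and 79.1). Both summits lay just beyond the end of KMT2D, and the protein-coding gene PRKAG1 starts within 1 kb of these peaks, so they cannot be assigned to either gene. Without peaks at the TSS of another gene, 10 of the 46 genes had a PTBP1 gene-body peak and 7 a RUNX1 gene-body peak (9.06% and 8.99% over all genes). KDM4C had a further RUNX1 peak of 24.1 from 31 fragments (21.1 to 44.0) at chr9:7150104-7150725 in intron 19, and that of KDM2B in intron 6, chr12:121536224-121537913, had the same values. For PTBP1, KDM6B had a peak of 19.8 from 33 fragments (22.7 to 46.3) at chr17:7841771-7845407 in intron 2 and a weaker one of 14.5 from 24 fragments (15.4 to 35.7) at chr17:7838648-7840230 in intron 1, and RUNX1 peaks lay over both. KDM2B had a PTBP1 peak of 14.5 from 24 fragments in intron 12 at chr12:121467137-121467628.

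A RUNX match lay within 50 bases of the summit at 5 of the 15 RUNX1 gene-body peaks and 4 of the 25 PTBP1 gene-body peaks, beside the 24.2% of all RUNX1 and 8.79% of all PTBP1 peaks given above. The RUNX1 peaks were those of KDM7A in intron 1, the weaker KMT2E peak at chr7:104957104-104957412 (14.3 from 18 fragments), KDM4B in intron 18, and KDM4C at its canonical start and in intron 13. The sequences in KDM4B and KDM4C are shown because each held a pair of neighbouring matches, in capitals.

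KDM4B intron 18, chr19:5139320-5139420, plus strand: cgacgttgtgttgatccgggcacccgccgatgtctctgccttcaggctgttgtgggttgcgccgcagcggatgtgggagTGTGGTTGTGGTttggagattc

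KDM4C intron 13, chr9:7011880-7011957, plus strand: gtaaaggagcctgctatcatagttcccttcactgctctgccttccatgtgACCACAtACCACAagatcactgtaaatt

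In KDM4B the matches TGTGGT stood end to end, and in KDM4C the reverse complement ACCACA stood as a pair with 1 base between. The KDM4C peak was weak, at 11.3 from 14 fragments, in contrast to the KDM4B peak at 40.6.

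No peak of either list was found at the TSS or in the body of 9 genes, KDM1B, KDM4D, KDM4E, KDM4F, KDM5B, KDM6A, SETD6, SETD7 and SUV39H1. Of the 14 genes without a TSS peak, 5 had a CpG-rich start site, where 30 of the 32 genes with a TSS peak did. The median CpG ratio was 0.544 over the former and 0.841 over the latter. Over all protein-coding genes, CpG-rich start sites made up 4542 of the 5281 with a PTBP1 TSS peak and 3698 of the 4266 with a RUNX1 TSS peak. Among all genes the share was 58.1%, so the contrast is not particular to this family. KDM4D, KDM4E and KDM4F are related copies on chromosome 11, and how many reads there passed the mapping quality filter of the authors was not tested. Absence from a list means that no peak passed the authors' threshold. The weakest summits called had 11 fragments for PTBP1 and 8 for RUNX1 over the whole lists, and 16 and 11 at these start sites.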

How the data were processed

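Chromatin of MOLM-13 cells was profiled by CUT&Tag and CUT&RUN in 13 libraries. Bowtie2 alignment to hg38, a mapping quality filter (above 30), duplicate removal and MACS3 peak calling (q-value threshold 1e-07) were done by the authors. The submitters' processing notes also name FastQC, cutadapt, SAMtools, Picard and bedtools 2.30.0. Lists were deposited for PTBP1 and RUNX1 and were taken as CUT&Tag lists, and whether replicates were pooled is not given in the sources used here. The IgG and H3K27me3 libraries, read totals, the spike-in and the MAnorm comparison of the study were not analysed here, so the only depth given is the number of fragments at a summit. Groups were taken from the sample titles.

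For each peak the deposited fold enrichment ratio is (fragments at the summit + 1) / (background + 1). The deposited files also give the −log10 p-value under a Poisson model, the −log10 q-value, and a score of 10 times the latter, cut to a whole number. The fold enrichment and −log10 p-value were solved for a whole number of fragments and a background, and this was tested on simulated data, where 500 of 500 pileups were recovered. A list with more background needs more fragments per peak.

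Genes and transcripts came from GENCODE version 44. The strongest peak represented a TSS. Gene-body peaks overlapped the gene but came no nearer than 1000 bases to its TSS. Exons and introns are those of the canonical transcript, and coordinates are 1-based. Sequences were read from the hg38 genome. Counts were set beside all 19970 protein-coding genes with 95% Wilson intervals, and no test was made. The genes and lists were chosen with earlier results of these data known. Full values were given for the 5 members of highest fold enrichment at the TSS in each list, every gene with a TSS peak of a single list, and the 5 strongest gene-body peaks of each list. Other genes were given by values within their group. The tools were samtools 1.23.1 and Python 3.11.15 with scipy 1.17.1, pandas 2.3.3, numpy 2.4.6 and matplotlib 3.10.9. Alternatives covered the window, the start used, the q-value, the background, the motif and overlap rules, and the start of the canonical transcript and the omission of KDM4A were chosen after seeing the data.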

Additional observations from a re-analysis of the deposited data

How the results depend on the processing

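Of 56 alternatives to 10 results, 50 stayed within 1.5 times the count or within the interval of the value. With peaks of −log10 q of at least 20 only, RUNX1 peaks were found at 17 start sites (13.5% of all genes) and both peaks at 13 (10.5%), and 6 genes had a PTBP1 gene-body peak (6.69%). Without peaks within 1 kb of another start of the same gene, 6 genes had a PTBP1 gene-body peak (7.32% of all genes). An excess of PTBP1 gene-body peaks was not shown at either of these settings. With TGTGGT as the only RUNX motif, the share of start-site summits with a match was 3.7% for PTBP1 and 3.45% for RUNX1. No alternative brought the PTBP1, RUNX1 or shared count at start sites below its share over all genes. The alternatives that moved a value keep fewer peaks or use a narrower motif, and the cause of each change was not tested. No paired analysis was possible because the lists carry no replicate, and for the same reason no replicate could be left out. Weak peaks rested on 11 to 20 fragments, so a gene absent from a list is not shown to lack the protein.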

Other observations

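The genes of other chromatin enzymes and of partner subunits were counted by the same rule. Among 22 subunits that work with the methyltransferases and demethylases, 14 had a PTBP1 peak at the TSS (63.6%, 95% Wilson interval 43.0 to 80.3), 12 a RUNX1 peak (54.5%, 34.7 to 73.1) and 11 both. Of these, 8 of 11 COMPASS subunits and 4 of 9 PRC2 subunits had a PTBP1 peak, and 6 of 11 and 4 of 9 had a RUNX1 peak. Both partners of KDM1A on the list, RCOR1 and PHF21A, had both peaks, where KDM1A itself had RUNX1 alone.

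Among 25 genes of histone acetylation, 16 had a PTBP1 peak (64.0%, 44.5 to 79.8), 12 a RUNX1 peak (48.0%, 30.0 to 66.5) and 12 both. The 14 remaining genes of lysine methylation, such as DOT1L, the SMYD genes and PHF8, had 5 PTBP1 peaks at start sites (35.7%, 16.3 to 61.2) and 4 RUNX1 peaks (28.6%, 11.7 to 54.6), intervals that include the shares of all genes. Differences between these lists and the 46 genes were not tested.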
